A study of Mus musculus with 96 samples.

Results

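Potassium channel genes were read across the cortex, muscle and liver of mice fed ad libitum (AL) or on intermittent fasting (IF). Members were the protein-coding genes whose symbol starts with Kcn and continues with the letter of a pore-forming or auxiliary family, and antisense genes, whose symbols end in os, were left out. By this rule 93 of the 56748 genes in the count table were members, and 21970 of those genes are protein-coding. They comprised 17 voltage-gated pore-forming genes (Kcna, Kcnb, Kcnc and Kcnd), 10 electrically silent subunits (Kcnf, Kcng, Kcns and Kcnv), 12 auxiliary subunits (Kcnab, Kcnip and Kcne), 5 Kcnq genes, 8 Kcnh genes, 15 inward rectifiers (Kcnj), 14 2-pore channels (Kcnk), 9 calcium-activated genes (Kcnma, Kcnmb and Kcnn) and 3 sodium- or pH-activated genes (Kcnt and Kcnu). They lie on 19 chromosomes, with 10 on chromosome 2 and 2 on X. An annotated gene overlaps 41 of them, on the same strand in 15, and 52 are free of any overlap.

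The study asked how a daily fast alters gene expression in several organs. Male C57BL/6 mice were given IF, a fast of 16 h each day, or food ad libitum from 6 weeks of age for 4 months, with 8 mice per group and RNA sequenced from each of the 3 tissues. The library names carry the numbers 1 to 8 for AL and 9 to 16 for IF males, used here as mouse numbers in every tissue, and a further 16 for females, AL 25 to 32 and IF 33 to 40, whose strain, age and time on the diet are not given in the sources used here. Mice were killed in the morning at the end of the fasting window, so the last fast, the long regimen and the hour of feeding cannot be told apart.

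Of 96 libraries, 95 were used. Totals of the 96 ran from 26097314 to 49838004 counts, and levels are given as CPM, counts scaled to the total of each library. The cortex library of male AL mouse 1 was omitted: it held the female transcript Xist at 213 CPM, with 0 counts of the Y-linked genes Ddx3y and Uty. In the other 47 libraries of males Xist lay between 0 and 0.612 CPM and Ddx3y between 25.1 and 70.8 CPM, and in the 48 libraries of females Xist lay between 36.8 and 1627 CPM. Male AL cortex therefore has 7 libraries, and every other group has 8. Each tissue held the markers of its label: Alb averaged 32713 CPM in male liver, Acta1 averaged 42274 CPM in male muscle and Snap25 averaged 2476 CPM in male cortex.

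Potassium channels let potassium ions leave or enter the cell and so set the resting potential, end action potentials and pace firing. Voltage-gated members open on depolarization, inward rectifiers and 2-pore channels hold the membrane near rest, and calcium-activated members couple the membrane to calcium signals. In neurons nearly every family is in use, in skeletal muscle inward rectifiers and ATP-sensitive channels stabilize the fibre membrane, and in liver channel currents accompany volume control and bile formation.

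Levels under AL differed widely between the tissues. In males, the mean was at least 1 CPM for 73 of 93 members in cortex, for 25 in muscle and for 14 in liver, and it was at least 10 CPM for 54, 14 and 4 members. Members at 0 in every AL library of males numbered 2 in cortex, 10 in muscle and 27 in liver. Summed over the members, the mean FPKM (CPM per kilobase of gene length, used wherever genes are compared with each other) came to 955 in cortex, 192 in muscle and 21.9 in liver. The sums in females were 1002, 203 and 27.1.

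In cortex, the auxiliary subunits carried the largest share of the summed FPKM, 26.4% in males, ahead of the inward rectifiers with 21.5% and the voltage-gated pore-forming genes with 16.9%. The inward rectifier Kcnj4 led with 95.9 ± 15.6 FPKM (SD, n = 7), followed by Kcnab2, a cytoplasmic subunit of voltage-gated channels, with 89.2 ± 12.3 FPKM, and the ranges of these 2 genes over mice overlapped. Kcnip2 and Kcnip3, calcium-binding partners of Kcnd channels, stood at 60.2 ± 15.3 and 48.5 ± 4.15 FPKM, and Kcnh3, a voltage-gated channel of forebrain neurons, stood at 55.1 ± 6.62 FPKM. In females the same 5 genes led, with Kcnab2 at 104 ± 9.30 FPKM above Kcnj4 at 87.8 FPKM.

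In muscle, inward rectifiers carried 45.3% of the summed FPKM of males and voltage-gated pore-forming genes 36.4%. Kcnj11, the pore of the ATP-sensitive channel of muscle, led with 57.1 ± 2.65 FPKM (SD, n = 8). Kcna7, a voltage-gated channel of skeletal and heart muscle, followed with 37.4 ± 4.03 FPKM, then Kcnc4, a fast-inactivating voltage-gated channel, with 17.4 ± 3.90 FPKM. The inward rectifier Kcnj12 stood at 15.2 ± 1.83 FPKM and the silent subunit Kcng4, which forms channels only together with other subunits, at 13.2 ± 2.99 FPKM, so that these 3 neighbours did not differ beyond their spread. In females Kcnj11 at 65.6 ± 5.41, Kcna7 at 36.6 and Kcnc4 at 27.4 FPKM again led, and Kcnj2, an inward rectifier at 10.4 FPKM, took the place of Kcng4 among the first 5.

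In liver, a single gene stood out. Kcnk5, a 2-pore background channel that opens in alkaline surroundings, measured 8.12 ± 2.13 FPKM in males (SD, n = 8), which was 37% of the sum over all members, and 10.8 ± 2.77 FPKM in females. Further down in males were the calcium-activated channel Kcnn2 with 1.71 ± 0.18, the auxiliary subunit Kcne3 with 1.61 ± 0.569 and the delayed rectifier Kcna2 with 0.929 ± 0.238 FPKM. Kcnn2 and Kcne3 did not differ beyond their spread.

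**Figure D1:**
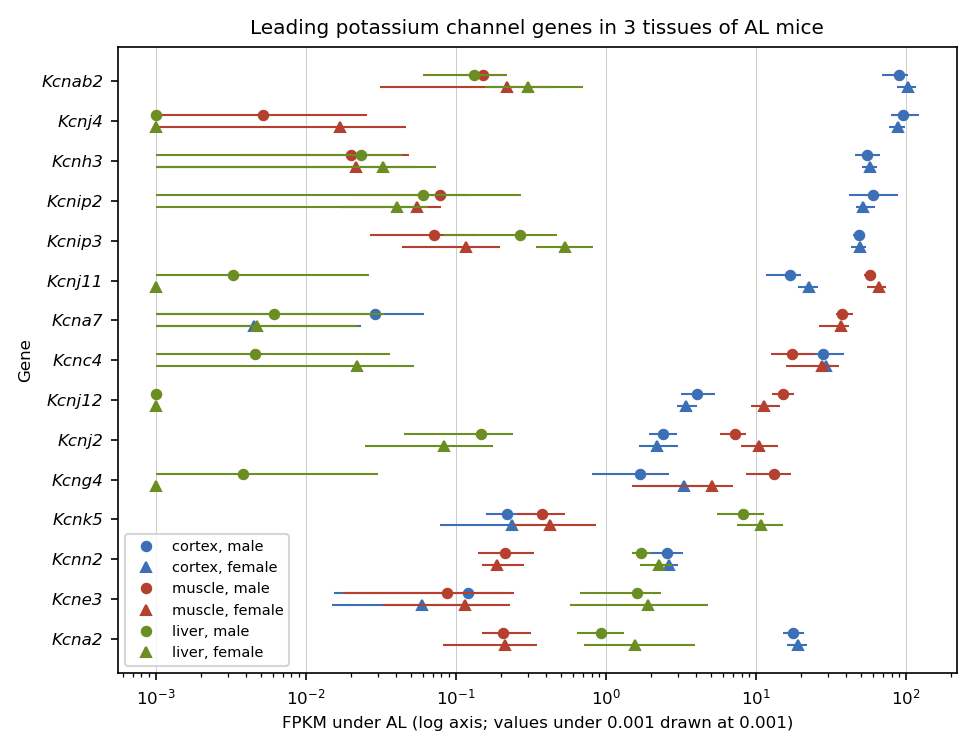
Mean FPKM of 15 leading potassium channel genes in cortex, muscle and liver of AL mice, on a log axis; circles are males, triangles are females, lines run from the lowest to the highest library, and values under 0.001 are drawn at 0.001. Kcnj4 stands highest in male cortex at 95.9 FPKM, Kcnj11 in male muscle at 57.1 FPKM and Kcnk5 in male liver at 8.12 FPKM.

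More members belonged mainly to cortex than to muscle or liver. A gene was counted for a tissue when its lowest AL library there lay above the highest library of both other tissues and its mean FPKM was at least 10 times that in each of them. By this count 55 members belonged to cortex in males (background over all protein-coding genes: 11.9%) and 52 in females (11.3%), 49 of them in both. To muscle belonged 1, Kcna7 (1.84% in males, 1.88% in females). Liver had 2 (4.24% and 4.36%), both in both sexes: Kcnk5, at 21.8 times the next tissue in males and 25.7 times in females, and Kcne3, an auxiliary subunit of Kcnq1 in epithelia, at 13.3 and 16.5 times. The cortex genes of highest FPKM on this count were Kcnj4, Kcnab2, Kcnip2, Kcnh3, Kcnip3, the 2-pore channel Kcnk1, the G-protein-gated rectifier Kcnj9 and the cytoplasmic subunit Kcnab3.

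In the fit of the 3 tissues under AL, 78 members passed the filter on low counts. Against liver, 74 of them differed in male cortex at an adjusted p under 0.05 (background over all genes tested: 84.5%), 70 of them higher in cortex (46.0%). Against muscle 71 differed in cortex (81.4%), 60 higher (45.3%), and between muscle and liver 54 differed (80.9%), 39 higher in muscle (40.9%). The median log2 difference of the members was 7.77 for cortex over liver, beside 0.21 over all genes tested, 4.72 for cortex over muscle beside 0.24, and 2.05 for muscle over liver beside 0.00. In females 74 members differed between cortex and liver (84.8%), 69 of them higher in cortex (47.0%), 75 between cortex and muscle (81.2%), 62 higher (45.0%), and 54 between muscle and liver (80.6%), 37 higher in muscle (41.7%). Some members passed the filter through their cortex counts alone and had to differ, so these counts are descriptions.

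In bulk tissue a lower level may stem from fewer cells of a type or from less RNA per cell, and these cannot be told apart here. In males, 81 members passed the filter in at least 1 of the 3 diet fits, 20 in all 3, and 28 were called at an adjusted p under 0.05 in at least 1 tissue (46.5% of the 20982 genes tested in at least 1 of these fits). A further 12 members passed in no diet fit of either sex. Each tissue is taken in turn, with the channel families in the order of their roles.

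In male liver, most of the channels called were higher under IF. Of 27 members tested, 13 were called (background 44.6%), 11 higher (23.5%) and 2 lower (21.1%), so that the share called lay near that of all genes while the direction leaned upward. The median log2 fold change of the members was 0.68, beside 0.06 over all genes tested. Both groups were free of overlap for 2 members, Kcnk5 and Kcnq1 (14.6% of all genes tested). Those that rose included background channels, the vascular rectifier Kcnj8 and several voltage-gated genes, and Kcnn2 was among the 2 that fell. Without IF mouse 9, a choice made after seeing the data, 8 members were called.

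Kcnk5, the leading channel of liver, was found at 18.6 CPM in the lowest, 26.9 in the median and 38.5 in the highest AL male and at 50.1, 82.1 and 121 CPM under IF. All 8 IF mice lay above all 8 AL mice. The log2 fold change was 1.47 ± 0.17 (SE), with an adjusted p of 1.91e-07, and it stayed between 1.35 and 1.56 when each mouse was left out in turn. Kcnk5 (ENSMUSG00000023243) lies on the minus strand of chromosome 14, from 20190125 to 20231877 in GRCm39, with no annotated gene across it. In females the values were 25.5, 38.5 and 51.5 CPM under AL and 27.2, 36.6 and 47.5 CPM under IF, with 4 of 8 IF mice above the AL median and a log2 fold change of 0.06 ± 0.17.

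Kcnq1, a voltage-gated channel that Kcne subunits keep open in epithelia, lay at 0.604, 0.931 and 1.38 CPM in AL males and at 1.47, 2.84 and 4.58 CPM under IF. No IF mouse fell within the AL range, and the log2 fold change was 1.53 ± 0.27 with an adjusted p of 6.35e-05, higher in 8 of 8. Its gene is overlapped by 12 annotated genes, 8 on the same strand and 4 on the other, the long antisense gene Kcnq1ot1 among the 12, and since the strand setting of the counting is not stated, this value is uncertain. Kcne3, its epithelial partner, ran from 1.18 over 3.34 to 4.13 CPM under AL and from 3.23 over 4.63 to 11.7 CPM under IF. The highest value belongs to IF mouse 9, and without that mouse the log2 fold change moved from 0.78 ± 0.26, adjusted p = 0.0178, to 0.51 with an adjusted p of 0.0844.

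The 2 other 2-pore channels that rose were low. Kcnk1, a weakly inward-rectifying background channel, had a median of 0.444 CPM under AL (range 0 to 1.23) and 1.3 CPM under IF (0.695 to 1.87), a log2 fold change of 1.22 ± 0.48 with an adjusted p of 0.0400 in 8 of 8. Kcnk3, an acid-sensitive background channel, had a median of 0.482 CPM under AL (0.175 to 1.26) and 1.3 CPM under IF (0.317 to 2.41), a log2 fold change of 1.16 ± 0.45 with an adjusted p of 0.0397 in 7 of 8. Groups overlapped for both, and the calls were near the threshold: Kcnk1 lost its call in 10 of 16 fits with a mouse left out, AL mouse 1, 4, 5, 6 or 8 or IF mouse 9, 12, 13, 14 or 15 (highest adjusted p 0.0796). Kcnk3 lost it in 12 of 16, all but those without AL mouse 6 or IF mouse 12, 13 or 14 (highest adjusted p 0.103). Neither passed the filter, and so neither was tested, with at least 10 counts asked of every library. An annotated gene on the opposite strand overlaps each of them.

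Among the inward rectifiers, Kcnj8, the pore of the ATP-sensitive channel of blood vessels, rose from 0.526, 2.20 and 2.91 CPM to 2.61, 4.23 and 6.58 CPM, with all 8 IF mice above the AL median and a log2 fold change of 1.14 ± 0.29 (adjusted p = 0.00224). Kcnj16, a rectifier that pairs with Kcnj10 and senses pH, lay at 0.035, 0.362 and 1.11 CPM under AL and 0.436, 0.856 and 4.13 CPM under IF. Its log2 fold change was 1.49 ± 0.54 (adjusted p = 0.0289, 8 of 8), and the call was lost without AL mouse 7, AL mouse 8, IF mouse 9 or IF mouse 16, with an adjusted p of up to 0.145. IF mouse 16 held the highest value. Kcnj16 also did not pass the filter, and so was not tested, with at least 10 counts asked of every library.

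Kcns3, a silent subunit that modifies voltage-gated channels, was at 0 in 5 of 8 AL males and reached 0.29 CPM in the highest, while every IF male had counts, from 0.259 over 0.51 to 1.5 CPM (log2 fold change 2.65 ± 0.79, adjusted p = 0.00816). Kcns3 passed the filter mainly through the IF group, where it was higher, so this call is a description. At so few counts the size of that change is loosely fixed. The call was kept in 16 of 16 fits with a mouse left out, but Kcns3 did not pass the filter, and so was not tested, with at least 10 counts asked of every library or without AL mouse 2 and IF mouse 9 or 10. The auxiliary subunit Kcnab3 rose from a median of 0.96 CPM (0.246 to 1.82) to 1.79 CPM (1.24 to 3.65), with a log2 fold change of 0.87 ± 0.35 and an adjusted p of 0.0442 in 8 of 8. That call was lost without any of AL mouse 3, 5, 6, 7 or 8 or IF mouse 9, 11, 13, 14 or 16, with an adjusted p of up to 0.124, and its antisense gene overlaps it.

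The calcium-activated channels split. Kcnn2, a small-conductance channel, fell from 11.1, 12.6 and 14.9 CPM to 6.61, 8.74 and 15.5 CPM, where IF mouse 13 alone stood above the AL range (log2 fold change −0.57 ± 0.14, adjusted p = 0.00224, 7 of 8 below the AL median). Kcnn4, an intermediate-conductance channel of epithelia and blood cells, rose from 0.424, 0.873 and 1.72 CPM to 1.25, 2.26 and 3.30 CPM (log2 fold change 1.13 ± 0.34, adjusted p = 0.00818, 8 of 8). A gene on the opposite strand overlaps Kcnn2.

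Some markers of other liver cells were called in the same mice, and their part in the channel values was not tested. Over all genes tested 44.6% were called, 23.5% higher and 21.1% lower. Of 5 erythrocyte markers 3 rose, and the sum of all 5 went from 362, 569 and 956 CPM under AL to 667, 2070.4 and 6879 CPM under IF, highest in IF mouse 9, with Hba-a1 the most abundant. Of 4 endothelial markers 2 rose, Flt1 and Tek, while Pecam1, the most abundant, was not called (adjusted p = 0.0527), and the sum of all 4 was 34.7, 39 and 54.0 CPM under AL and 47.4, 52.1 and 88.0 CPM under IF. Of 5 smooth muscle and pericyte markers 2 rose, Acta2 and Myh11, while Rgs5, the most abundant, was not called (adjusted p = 0.105), and the sum of all 5 was 26.5, 28.9 and 33.9 CPM under AL and 28.6, 49.1 and 82.2 CPM under IF. Of 4 cholangiocyte markers 3 rose and 1 fell, the most abundant of them, Sox9 (log2 fold change −1.26, 8 of 8 below the AL median), and the sum of all 4 was 7.93, 15.7 and 28.3 CPM under AL and 12.3, 20.1 and 41.3 CPM under IF. Of 5 macrophage markers edgeR called 0, with 0 at an unadjusted p under 0.05 and 0 by DESeq2, and their sum, led by Csf1r, was 25.6, 31.7 and 52.1 CPM under AL and 28.7, 34 and 83.6 CPM under IF, highest in IF mouse 16, which also held the highest Kcnj16. IF mouse 9, highest for Kcne3 and Kcns3, was highest for the endothelial and cholangiocyte sums too and second to IF mouse 10 for that of smooth muscle and pericytes, at 69.6 CPM. No gene of these 5 lists was at 0 throughout. Of the 4 hepatocyte markers 1 rose and 1 fell, and their sum, led by Alb, had medians of 48255 CPM under AL and 51828 CPM under IF.

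In female liver the edgeR test called 0 of 28 members tested (background 0.0%). At an unadjusted p under 0.05 there was 1 (5.77%), the A-type channel Kcnd1 with a log2 fold change of 0.77 ± 0.29, named after its values were seen, and DESeq2 called 0 (0.0138%). The median log2 fold change of the members was 0.12, beside −0.01 over all genes.

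The difference between the sexes was tested as an interaction, in which 38 liver members passed the filter and 7 were called (23.7%). The change of Kcnk5 was smaller in females than in males by a log2 of −1.37 ± 0.25 (adjusted p = 6.78e-05). Kcnj8 (−1.03, adjusted p = 0.0358) and Kcns3 (−3.35, adjusted p = 0.0250) differed the same way. For Kcnn2, which fell in males, the female change was higher by 0.59 (adjusted p = 0.0202). Kcnj2, an inward rectifier of muscle and heart, was the sole member of the 7 with no call in either sex alone: its log2 fold change was −1.06 ± 0.50 in males and 0.93 ± 0.45 in females, a difference of 2.01 with an adjusted p of 0.0246. Males and females are also separate sets of mice, so sex and set cannot be told apart.

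**Figure D2:**
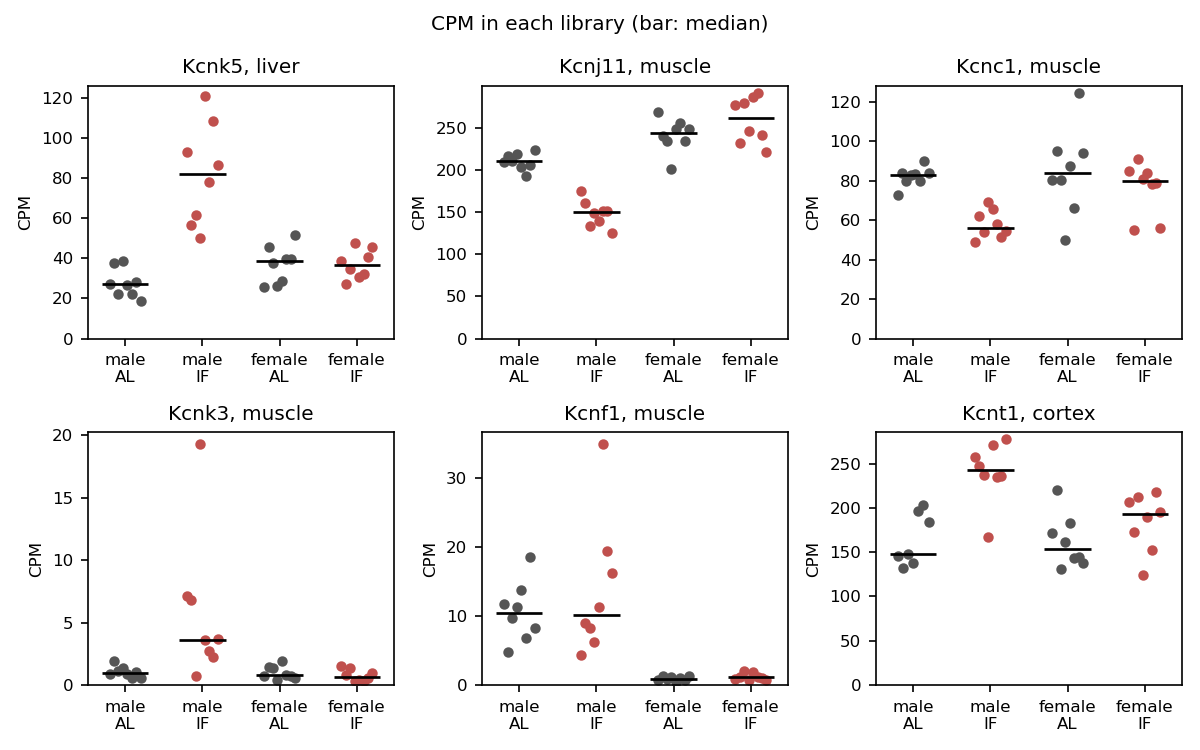
CPM in each library of Kcnk5 in liver, Kcnj11, Kcnc1, Kcnk3 and Kcnf1 in muscle, and Kcnt1 in cortex, by sex and diet, with a bar at each group's median. In males the IF libraries of Kcnk5 start at 50.1 CPM, above the highest AL library at 38.5 CPM, and those of Kcnj11 end at 174 CPM, below the lowest AL library at 192 CPM.

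In male muscle, most of the channels called were lower under IF. Of 39 members tested 15 were called (background 23.0%), 5 higher (11.5%) and 10 lower (11.6%). The median log2 fold change of the members was −0.22, beside 0.01 over all genes tested. Of 5 inward rectifiers tested 4 were lower. Of 9 voltage-gated pore-forming genes tested 3 were lower and 1 was higher. The groups did not overlap for 2 members, Kcnj11 and Kcnc1 (4.17% of all genes tested).

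Kcnj11 lay at 192, 210.2 and 223 CPM in AL males and at 125, 149.8 and 174 CPM under IF. Every IF mouse was below every AL mouse, and the log2 fold change was −0.57 ± 0.06 with an adjusted p of 1.39e-06. Kcnj11 (ENSMUSG00000096146) lies on the minus strand of chromosome 7, from 45743377 to 45750188 in GRCm39, free of overlap. In females it lay at 201, 244 and 268 CPM under AL and 221, 261 and 291 CPM under IF, a log2 fold change of 0.18 ± 0.09, with 5 of 8 IF mice above the AL median.

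The strong inward rectifiers, which hold the fibre near the potassium equilibrium potential, were lower too. Kcnj2 fell from 31.1, 41.2 and 47.0 CPM to 15.4, 28.5 and 33.5 CPM, with all 8 IF mice below the AL median (log2 fold change −0.64 ± 0.14, adjusted p = 0.00333). Kcnj12 fell from 35, 40.6 and 49.0 CPM to 27.9, 31 and 39.3 CPM, again in 8 of 8 (−0.45 ± 0.08, adjusted p = 0.000470). Kcnj8, mostly a channel of vascular cells, fell from 16.1, 19.1 and 22.1 CPM to 8.01, 13.3 and 20.1 CPM in 7 of 8 (−0.51 ± 0.14, adjusted p = 0.0128), whereas it rose in liver. Groups overlapped for all 3.

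Of the voltage-gated genes, Kcnc1, a channel for fast repolarization, lay at 72.8, 83.0 and 90.3 CPM under AL and at 49.2, 56.3 and 69.2 CPM under IF. Its IF mice were all below its AL mice, with a log2 fold change of −0.57 ± 0.06 and an adjusted p of 1.32e-06. Kcng4, the silent subunit, fell from 32.8, 52.9 and 64.9 CPM to 23.3, 28.3 and 42.0 CPM in 8 of 8, a log2 fold change of −0.84 ± 0.15 with an adjusted p of 0.000607. The ranges overlapped, the highest IF mouse being mouse 9.

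Kcnq5, a slow channel of the M-current type, fell from 8.30, 10.9 and 13 CPM to 5.58, 7.37 and 8.72 CPM in 8 of 8 (−0.66 ± 0.11, adjusted p = 0.000194). Kcna7 and Kcnc4, next to Kcnj11 in abundance, had log2 fold changes of −0.16 ± 0.07 (adjusted p = 0.0950) and −0.30 ± 0.18 (adjusted p = 0.251) and were not called.

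The 5 members that rose in male muscle were all below 10 CPM in the AL median. Kcnk3 lay at 0.532, 0.941 and 1.96 CPM under AL and at 0.706, 3.63 and 19.3 CPM under IF. IF mouse 12 was the highest, mice 9 and 10 followed with 7.12 and 6.84 CPM, and mouse 11 stayed within the AL range. The log2 fold change was 2.40 ± 0.55 (adjusted p = 0.00549), higher in 7 of 8. Markers of adipocytes moved with it: 3 of 4 rose (background 11.5%). The sum of all 4, led by Cidec, went from 9.81, 34.3 and 121 CPM to 35.8, 176 and 613 CPM. It was highest in IF mouse 12 and lowest of the IF mice in mouse 11, with no gene of the list at 0. Leaving out IF mice 9, 10 and 12, those with Adipoq over 80 CPM, a choice made after seeing the data, gave 1.26 ± 0.34 with an adjusted p of 0.0123. In the IF males left, the adipocyte sum still ran from 35.8 to 219 CPM. The part of adipocytes in the Kcnk3 values was not tested. A gene on the opposite strand overlaps Kcnk3.

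Kcna5, a delayed rectifier also found in vessels and immune cells, rose from 3.75, 5.09 and 7.33 CPM to 4.53, 8.79 and 11.1 CPM in 7 of 8, a log2 fold change of 0.61 ± 0.16 with an adjusted p of 0.0100. Kcnu1, a pH-sensitive channel best known from sperm, rose from a median of 0.333 to 0.807 CPM (1.29 ± 0.36, adjusted p = 0.0122, 7 of 8), and Kcns3 from 0.170 to 0.558 CPM (1.60 ± 0.44, adjusted p = 0.0104, 7 of 8). Kcns3 passed the filter with the help of the IF group, where it was higher, so its call is a description. Kcne4, a subunit that damps voltage-gated channels, rose from 0.505 to 1.07 CPM in 8 of 8 (0.77 ± 0.27, adjusted p = 0.0413). Its call was kept in 3 of 16 fits with a mouse left out, those without AL mouse 5, IF mouse 9 or IF mouse 10, and the adjusted p reached 0.0783 in the other 13. Groups overlapped in all 4. With at least 10 counts asked of every library Kcns3 did not pass the filter, and so was not tested, and Kcnu1 was not called.

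Over all genes tested in male muscle 23.0% were called, 11.5% higher and 11.6% lower. Of 6 skeletal fibre markers in male muscle 1 fell, and their sum, led by Acta1, had medians of 98104 CPM under AL and 94076 CPM under IF. Of the hepatocyte markers 2 could be tested in male muscle: Cyp2e1 rose in 8 of 8 IF mice, and Alb had a log2 fold change of 1.40 ± 0.53 with an adjusted p of 0.0636, above the AL median in 7 of 8. The sum of the list was 1.57, 4.71 and 11.9 CPM under AL and 35.1, 85.4 and 209.8 CPM under IF. Of the vascular markers, which sit beside Kcnj8 and Kcna5, edgeR called 0 of 4 for endothelium and 0 of 5 for smooth muscle and pericytes, with summed medians of 146 and 305 CPM under AL and 161 and 335 CPM under IF. Of the immune markers 1 of 3 tested for macrophages fell, and 1 of 3 tested for T, B and mast cells, while edgeR called 0 of 4 Schwann cell markers. At an unadjusted p under 0.05 there was 1 endothelial marker, 0 of smooth muscle and pericytes and 1 of Schwann cells, and DESeq2 called 0 in each of these 3 lists. Their part in the channel values was not tested.

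In female muscle the edgeR test called 0 of 41 members (background 0.00653%). At an unadjusted p under 0.05 there were 4 (10.7%), named after their values were seen: Kcnj12 with a log2 fold change of 0.37, Kcnq5 with −0.34, the fast channel Kcnc2 with −1.04 and the auxiliary subunit Kcne1l with −1.0. DESeq2 called 0 members (0.569%). The median over the members was −0.09, beside −0.02 over all genes.

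The interaction of diet and sex in muscle called 7 of 48 members (14.2%). The change was higher in females than in males for Kcnj11 by 0.77 ± 0.11 (adjusted p = 1.75e-05), for Kcnj12 by 0.83 ± 0.16 (adjusted p = 0.000426) and for Kcnj2 by 0.71 ± 0.20 (adjusted p = 0.0131). It was lower in females for Kcnk3 by −2.63 ± 0.66 (adjusted p = 0.00711), for Kcna5 by −0.95 ± 0.25 (adjusted p = 0.00814) and for Kcns3 by −1.94 ± 0.63 (adjusted p = 0.0327). Kcns3 did not pass the filter in both sexes alone. Kcnj12 in females lay at 25.4, 30.7 and 39.6 CPM under AL and 28.3, 39.3 and 45.1 CPM under IF, the opposite side from males. Kcna5 in females lay at 3.96, 5.83 and 6.90 CPM under AL and at 2.44, 4.36 and 5.77 CPM under IF, below the AL median in 8 of 8. Of the vascular markers in the same females edgeR called 0 of 4 for endothelium and 0 of 5 for smooth muscle and pericytes (background 0.00653%). At an unadjusted p under 0.05 there were 3 and 3 (10.7%), and DESeq2 called 1 and 1 (0.569%). The endothelial sum, led by Cdh5, was 113, 148 and 183 CPM under AL and 73.2, 117 and 132 CPM under IF, and that of smooth muscle and pericytes, led by Rgs5, 247, 359 and 472 CPM and 177, 277 and 324 CPM. No gene of either list was at 0 throughout, and their part in the Kcna5 values was not tested.

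**Figure D3:**
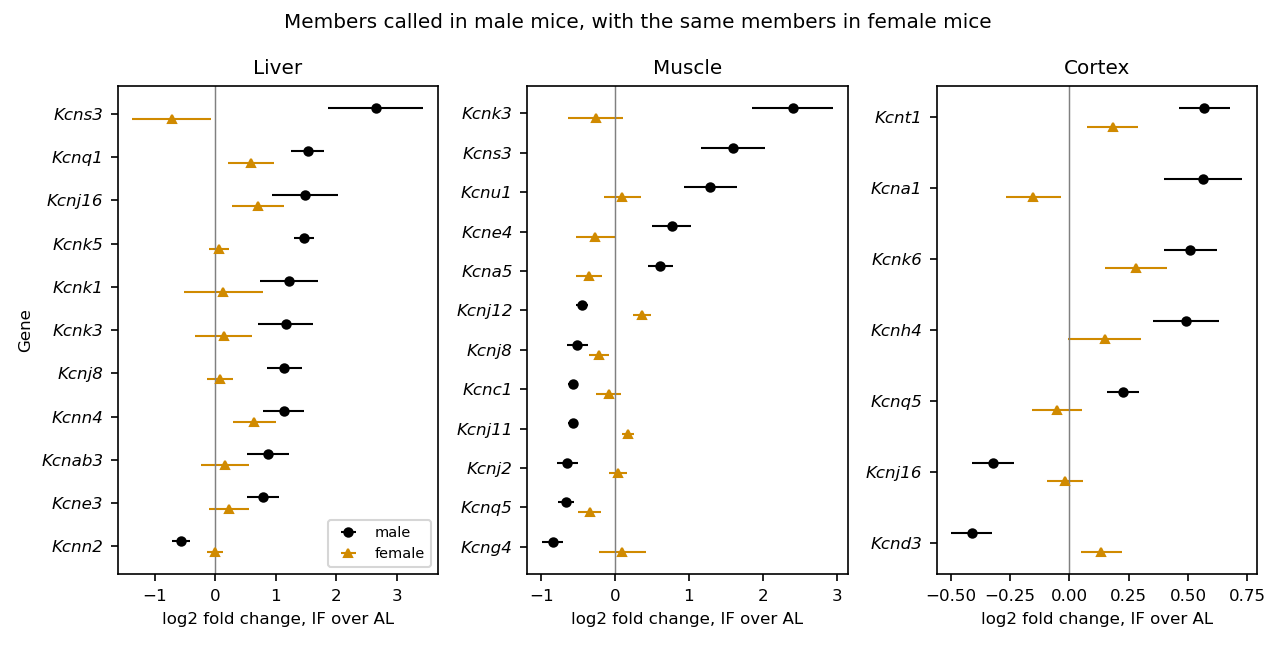
Log2 fold change of IF over AL, with its SE, for members called in males in each tissue, beside the same members in females where these were tested. Of the members drawn, 10 of 11 male changes are above 0 in liver, 5 of 12 in muscle and 5 of 7 in cortex, and none of the female changes was called.

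In male cortex 78 members were tested and 7 called (background 7.21%), 5 higher (3.79%) and 2 lower (3.43%), a share near that of all genes. No member's groups were free of overlap (1.01%). The median log2 fold change of the members was 0.05, beside 0.00 over all genes tested. All 7 calls showed their direction in 8 of 8 IF mice against the AL median, and all were under 2-fold. Left out in turn after seeing the data, certain mice moved the count: it was 3 without AL mouse 2, 3 or 5 or IF mouse 11 or 16, 4 without IF mouse 13 or 14, and 11 without AL mouse 7.

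Kcnt1, a sodium-activated channel that slows firing, lay at 132, 148 and 203 CPM under AL and at 167, 243 and 277 CPM under IF. Only IF mouse 12, at 167 CPM, fell within the AL range, and the log2 fold change was 0.57 ± 0.11 with an adjusted p of 0.00656. Kcnt1 (ENSMUSG00000058740) lies on the plus strand of chromosome 2, from 25753746 to 25808285 in GRCm39. In females its log2 fold change was 0.18 ± 0.11.

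Kcnd3, an A-type channel that delays firing, went down, from 33.5, 46.8 and 48.8 CPM to 27.7, 32.5 and 35.6 CPM (−0.41 ± 0.09, adjusted p = 0.00940). AL mice 4 and 6 lay within the IF range. With the replicate number as a block Kcnd3 was not called. Annotated genes overlap it on both strands. Kcnk6, a 2-pore channel, rose from 3.37, 3.58 and 4.08 CPM to 3.72, 5.15 and 6.11 CPM (0.51 ± 0.11, adjusted p = 0.0124).

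The other 4 calls were each lost when certain mice were left out, and also with the replicate number as a block. Kcna1, a low-threshold channel of axons, rose from 2.46, 4.11 and 5.22 CPM to 4.32, 5.71 and 6.90 CPM (0.56 ± 0.17, adjusted p = 0.0443), and was not called without AL mouse 2, 3, 5 or 6 or IF mouse 10, 11, 13, 14, 15 or 16 (up to 0.102). Kcnh4, a slow voltage-gated channel, rose from 22.4, 32 and 44.9 CPM to 37.6, 45.9 and 59.9 CPM (0.49 ± 0.14, adjusted p = 0.0399), and was not called without AL mouse 2, 3, 4, 5 or 8 or IF mouse 9, 10, 11, 13, 14 or 16 (up to 0.0863). Kcnq5, lower in muscle, rose in cortex from 52.0, 57.0 and 69.3 CPM to 60.0, 68.3 and 78.0 CPM (0.23 ± 0.07, adjusted p = 0.0454), and was not called without AL mouse 2, 3, 4, 5 or 6 or IF mouse 10, 11, 12, 13, 14 or 16 (up to 0.105). Kcnj16, higher in liver, fell in cortex, where it serves astrocytes, from 15.4, 17.0 and 20.3 CPM to 9.93, 14.4 and 15.5 CPM (−0.32 ± 0.09, adjusted p = 0.0365), and was not called without AL mouse 2, 3, 5 or 8 or IF mouse 9, 11, 15 or 16 (up to 0.0876).

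Some cell markers were also called in male cortex, where 7.21% of all genes tested were called, 3.79% higher and 3.43% lower. Of 4 oligodendrocyte markers 3 rose, the sum of all 4 going from 3652, 4468 and 5693 CPM to 4943, 6528 and 8125 CPM with Mbp leading, and of 4 astrocyte markers 1 fell. Of the 5 choroid plexus markers 0 were called by edgeR, yet AL mouse 4 at 3161 CPM, IF mouse 11 at 3470.0 CPM and IF mouse 14 at 1597 CPM, nearly all of it Ttr, stood far above the medians of 36.1 and 20.4 CPM. Of 4 markers of striatum and thalamus 0 were called, while their sum, led by Ppp1r1b, ran from 129 over 404 to 1035 CPM under AL and from 340.2 over 702 to 1041 CPM under IF. The 6 neuron markers and the 3 interneuron markers had 0 calls, with medians of 6167 and 561 CPM under AL and 6268 and 529 CPM under IF. At an unadjusted p under 0.05 the choroid plexus, striatum and thalamus, neuron and interneuron lists had 0, 1, 0 and 2 genes, and DESeq2 called 0, 0, 0 and 1. No gene of these lists was at 0 throughout, and their part in the channel values was not tested. Without AL mouse 4, IF mouse 11 and IF mouse 14, left out after seeing the data, 1 member was called, Kcnd3 (−0.42, adjusted p = 0.0347), and Kcnt1 stood at 0.55 with an adjusted p of 0.0525. With the cortex library of AL mouse 1 kept, 1 was called, Kcnt1 (0.51, adjusted p = 0.0243).

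In female cortex the edgeR test called 0 of 78 members (background 0.0109%). At an unadjusted p under 0.05 there were 12 (11.2%), and DESeq2 called 1 (0.32%), Kcnj12 with a log2 fold change of 0.36 in edgeR, higher in 8 of 8. The median over the members was −0.01, beside 0.00 over all genes. The interaction of diet and sex called 1 of 84 members (2.03%), Kcnd3, whose change was higher in females by 0.55 ± 0.12 (adjusted p = 0.0167). With the cortex library of AL mouse 1 kept that test called 0.

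Some channels were called in more than 1 male tissue. Liver and muscle shared 5, out of 13 and 15 called and 20 tested in both (12% of all genes tested in both). Among them Kcnk3 and Kcns3 rose in both, while Kcnj8 rose in liver and fell in muscle. The calls of Kcns3 in both tissues are descriptions, since its IF group helped it pass the filter. Cortex shared 1 of its 7 with liver, Kcnj16, of 26 tested in both (3.53%), and 1 with muscle, Kcnq5, of 37 tested in both (2.27%), each in opposite directions. The libraries of the 3 tissues carry the same mouse numbers, so these values are set side by side as a description.

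Differences between the tissues were tested as interactions over the 82 members that passed the filter in males. Between liver and muscle 16 differed (background 33.7%), of which 8 had passed the filter in each tissue alone. The change in liver exceeded that in muscle by a log2 of 1.75 ± 0.26 for Kcnk5 (adjusted p = 5.51e-07) and 1.60 ± 0.28 for Kcnj8 (adjusted p = 1.07e-05). Kcnk6 was also higher in liver by 1.16, and Kcnn2 and Kcnh7, a channel of the ether-a-go-go-related type, were lower by −0.69 and −1.16. Kcnk6 (adjusted p = 0.0519 in liver and 0.0589 in muscle) and Kcnh7 (0.0946 and 0.0859) were called by edgeR in neither tissue alone.

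Between liver and cortex 23 members differed (30.1%), 10 of them passing in each tissue. The liver change was higher by 1.64 ± 0.29 for Kcnk5, 1.24 for Kcnj8 and 2.55 for Kcns3, and lower by −1.31 for Kcnj2. Kcnj2 was called by edgeR in neither of these tissues alone (adjusted p = 0.0877 in liver and 0.277 in cortex). Between muscle and cortex 5 differed (5.21%), 4 passing in each. There Kcnk3 was higher in muscle by 2.26 ± 0.51 (adjusted p = 0.00470), and Kcng4, Kcnj11 and Kcnk6 were lower by −1.23, −0.70 and −1.03. With the mouse number as a block this last count became 2. In females edgeR called 0 members in each of the 3 tests, between liver and muscle (0.0611%), liver and cortex (0.0564%) and muscle and cortex (0.0047%). At an unadjusted p under 0.05 the counts were 15 (9.59%), 19 (11.7%) and 8 (6.5%), and DESeq2 was not run on these tests.

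The ATP-sensitive channel joins pore subunits, Kcnj11 or Kcnj8, with sulfonylurea receptors, Abcc8 or Abcc9, and closes when ATP is plentiful. In male muscle, where Kcnj11 and Kcnj8 fell, Abcc9 lay at 97.6, 111 and 129 CPM under AL and 107, 128 and 136 CPM under IF, a log2 fold change of 0.09 ± 0.07 with an adjusted p of 0.342. Abcc8 lay at 1.49, 2.16 and 2.56 CPM and at 1.45, 1.72 and 3.50 CPM, with a log2 fold change of −0.17. In male liver, where Kcnj8 rose, Abcc9 lay at 11.5, 13.3 and 21.4 CPM under AL and 13.1, 16.9 and 22.5 CPM under IF (0.20, adjusted p = 0.194), Abcc8 was at 0 in every library, and Kcnj11 was at 0 in 7 of 8 AL and 8 of 8 IF males. In male cortex the log2 fold changes were 0.14 for Kcnj11, −0.13 for Kcnj8, 0.31 for Abcc8 and 0.01 for Abcc9, with adjusted p values of 0.556 and 0.598 for the first pair, and none was called.

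A list of 28 partner genes, pumps, cotransporters and accessory subunits that share the work of potassium balance, was read beside the members. In male liver 4 of 15 tested rose (background over all genes tested: 23.5%) and 2 fell (21.1%), and in male muscle 3 of 23 rose (11.5%) and 4 fell (11.6%). In male cortex edgeR called 0 of 26 (7.21%), with 1 at an unadjusted p under 0.05 and 1 by DESeq2. Medians of the log2 fold change were 0.23, −0.13 and −0.06. Lrrc38, a subunit of the large-conductance calcium-activated channel, fell in muscle from 54.7, 63.6 and 75.7 CPM to 32.7, 38.4 and 49.3 CPM (−0.73 ± 0.10, adjusted p = 2.30e-05). Its AL and IF males did not overlap (4.17% of all genes tested in male muscle), with 8 of 8 lower. In females edgeR called 0 of 15, 23 and 26 partner genes in liver, muscle and cortex (background 0.0%, 0.00653% and 0.0109%). At an unadjusted p under 0.05 there were 0, 4 and 5 (5.77%, 10.7% and 11.2%), and DESeq2 called 0, 0 and 1 (0.0138%, 0.569% and 0.32%).

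Some channels differed between AL females and AL males, a comparison added after their levels had been seen, with the genes named here chosen the same way. In muscle 11 of 48 members differed (background 38.4%), 7 higher in females and 4 lower. Kcnf1, a silent subunit, lay at 4.83, 10.5 and 18.6 CPM in AL males and at 0.498, 0.940 and 1.36 CPM in AL females, with no overlap. The log2 difference was −3.60 ± 0.38 (adjusted p = 1.94e-08), lower in 8 of 8 females. Kcnf1 was not called for diet in either sex. Kcng4 lay at 5.71, 21.4 and 26.5 CPM in AL females, below every AL male (−1.5 ± 0.26, adjusted p = 4.58e-05), and Kcnj12 was lower by −0.56 while Kcnu1 was higher by 1.43.

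In cortex 16 of 84 members differed between the sexes under AL (12.6%), 9 higher in females and 7 lower. Kcnd3 had the lowest p, lower in females by −0.50 ± 0.09 (adjusted p = 0.000403), while the largest difference called was that of Kcna5, −1.30. The small-conductance channel Kcnn3 was lower by −0.77 and Kcna1 higher by 0.58. In liver 2 of 38 differed (20%), among them Kcnab2 by 1.02 ± 0.37 (adjusted p = 0.0471). With size factors of the RLE type 1 member was called.

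Promoter sequences of the members were looked at because some members, Kcnk5 and Kcnc1 among them, moved without overlap of the groups. RefSeq's promoter table, on GRCm38.p6, an older build than that of the counts, held 68 of the 93 members with 93 promoters, among 32851 in all. Over the 250 bases before the start and on both strands, the GC box GGGCGG was present in 45.2% of the members' promoters and 32.7% of all, and the TATA box TATAAA in 3.23% and 12.4%. The E-box CACGTG was present in 6.45% and 6.02%, and the cyclic AMP element TGACGTCA in 0 of 93 and 1.55%. A match is a description of letters, not of a bound site. The upstream windows of the 2 genes are shown because each holds 3 GC boxes, in capitals on either strand. The window of Kcnk5 is chr14:20181783-20182032 on the minus strand and that of Kcnc1 is chr7:46396218-46396467 on the plus strand, both read 5′ to 3′. Kcnj11, also without overlap, and Kcnk3 have no entry, and no window is shown for Kcnq1, without overlap too.
Kcnk5: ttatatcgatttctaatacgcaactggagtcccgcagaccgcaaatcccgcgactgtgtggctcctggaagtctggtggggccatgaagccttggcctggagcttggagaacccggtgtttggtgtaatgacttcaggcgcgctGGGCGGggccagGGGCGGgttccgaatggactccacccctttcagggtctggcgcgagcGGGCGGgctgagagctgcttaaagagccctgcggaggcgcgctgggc
Kcnc1: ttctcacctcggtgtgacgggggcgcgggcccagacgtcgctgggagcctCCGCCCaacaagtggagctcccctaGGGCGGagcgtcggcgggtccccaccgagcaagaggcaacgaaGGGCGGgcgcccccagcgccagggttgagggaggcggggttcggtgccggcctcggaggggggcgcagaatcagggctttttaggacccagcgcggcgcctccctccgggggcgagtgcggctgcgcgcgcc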

How the data were processed

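RNA was sequenced from cortex, muscle and liver of AL and IF mice. The authors aligned the reads with Hisat2 2.0.5 to the mouse genome mm39 and counted them per gene with featureCounts 1.5.0-p3, and the deposited values are raw counts. A directional and a non-directional library kit are both named, and the strand setting of the counting and the treatment of reads with several matches are not given in the sources used here. CPM and FPKM were computed here from counts, library totals and the gene lengths of the table. Tests used edgeR 4.0.16 in R 4.3.3 (TMM, filterByExpr with a minimum count of 10, robust quasi-likelihood fits), with Benjamini-Hochberg adjustment over all genes tested and a threshold of 0.05, two-sided, and were tested on simulated data. Males and females were fitted apart, differences between sexes or tissues as interactions. Alternatives were DESeq2 1.42.0, RLE size factors, other filters, 1 AL and 1 IF mouse fewer in males, a replicate block and mice left out. Of 329 pairs of libraries within groups 0 had identical counts. Libraries with the same mouse number in different tissues were treated as 1 animal from the numbers in the library names alone, and the median correlation of their deviations was 0.02 to 0.04. In males 5 of 16 numbers correlated best with their own between liver and muscle, 1 of 15 between liver and cortex and 4 of 15 between muscle and cortex, and in females 2, 1 and 3 of 16.

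Named members were the 5 of highest FPKM per tissue and sex, up to 8 mainly of 1 tissue, those called per diet test (beyond 10, the 10 of largest log2 fold change at a mean of at least 0.5 CPM), those called alike in both sexes or in opposite directions, up to 6 called per interaction test by p, and Kcnj8 and Kcnj11 with Abcc8 and Abcc9. The members, the partner list and the marker lists were chosen with earlier results of these data known. Results of some genes are not reported here. Python 3.11.15, pandas 2.3.3, numpy 2.4.6 and matplotlib 3.10.9 were used for tables and figures.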

Additional observations from a re-analysis of the deposited data

Results flagged for a closer look

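In 15 of the 120 groups of mice looked at for the named members, a value stood apart from the rest of its group by more of the range than chance allows in about 1 group in 20, and 13 of these 15 values belong to IF mice. In male liver they were Kcne3 at 11.7 CPM (others 3.23 to 5.93) and Kcns3 at 1.5 CPM (0.259 to 0.697) in IF mouse 9, Kcnj16 at 4.13 CPM (0.436 to 2.01) in IF mouse 16, Kcnn2 at 15.5 CPM (6.61 to 9.41) in IF mouse 13 and Kcnk3 at 1.26 CPM (0.175 to 0.555) in AL mouse 6. IF mouse 9 was also highest of the IF males in the summed markers of cholangiocytes at 41.3 CPM (next 29) and of endothelium at 88.0 CPM (next 62.3), and IF mouse 16 in those of macrophages at 83.6 CPM (others 28.7 to 60.9). In female liver it was Kcnn4 at 5.29 CPM in IF mouse 34 (0.805 to 2.42).

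In male muscle they were Kcnk3 at 19.3 CPM (0.706 to 7.12) in IF mouse 12 and Kcne4 at 1.23 CPM (0.32 to 0.607) in AL mouse 5. In female muscle IF mouse 37 was high for Kcng4 at 35.7 CPM (11 to 22.1) and low for Kcnj8 at 8.52 CPM (14.6 to 19.2). It was also lowest of the IF females in the summed markers of endothelium at 73.2 CPM (83.7 to 132) and of smooth muscle and pericytes at 177 CPM (229 to 324). In male cortex IF mouse 12 was low for Kcnt1 at 167 CPM (235 to 277) and IF mouse 11 low for Kcnj16 at 9.93 CPM (13.2 to 15.5). In female cortex IF mouse 36 was low for Kcnh4 at 19.1 CPM (40.7 to 53.5) and Kcnq5 at 34.2 CPM (60.2 to 73.5), and IF mouse 33 high for Kcnj16 at 22.1 CPM (14.2 to 17.7). IF mouse 36 also held the highest sum of choroid plexus markers, 4376 CPM (4.40 to 1593), and the lowest of neuron markers, 4992 CPM (5908 to 7126). The part of these cell markers in the channel values was not tested.

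The effect of IF differed between females and males by the interaction test, given as the female minus the male log2 fold change. In liver it did so for Kcnk5 (−1.37), Kcnn2 (0.59), Kcnj2 (2.01), Kcns3 (−3.35) and Kcnj8 (−1.03). In muscle it did so for Kcnj11 (0.77), Kcnj12 (0.83), Kcnk3 (−2.63), Kcna5 (−0.95), Kcnj2 (0.71) and Kcns3 (−1.94), and in cortex for Kcnd3 (0.55).

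It also differed between the tissues of males, by the difference of their log2 fold changes. Liver minus cortex gave 1.64 for Kcnk5, 1.24 for Kcnj8, 2.55 for Kcns3 and −1.31 for Kcnj2. Liver minus muscle gave 1.75 for Kcnk5, 1.60 for Kcnj8, −1.16 for Kcnh7, 1.16 for Kcnk6 and −0.69 for Kcnn2. Muscle minus cortex gave 2.26 for Kcnk3, −1.23 for Kcng4, −0.70 for Kcnj11 and −1.03 for Kcnk6. In this last test fewer members were called with the mouse number as a block.

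The omitted cortex library of male AL mouse 1 held Xist at 213 CPM, with 0 counts of Ddx3y and Uty.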

How the results depend on the processing

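Of the counts of members called, 113 stayed within 1.5 times the reported count under an alternative and 29 did not, and of the log2 fold changes of named members 759 kept direction and side of the threshold, 176 kept direction but missed it, and 0 reversed. All 30 levels moved by less than their spread. In male cortex, with 7 reported, the count was 19 at an unadjusted p, 12 with DESeq2, 12 with at least 10 counts in every library, 0 at a 2-fold minimum, 3 without AL mouse 2 and IF mouse 9 or 10 (6 AL and 7 IF mice), 1 with the library of AL mouse 1 kept and, chosen after seeing the data, 1 without the 3 libraries rich in Ttr. Leaving out each mouse in turn, an alternative chosen after seeing the data, gave 3 to 11 in male cortex (3 without AL mouse 2, 3 or 5 or IF mouse 11 or 16, 4 without IF mouse 13 or 14, 11 without AL mouse 7), 8 to 13 in male liver (8 without IF mouse 9) and 12 to 17 in male muscle. With 13 reported in male liver, no filter gave 20 and leaving out AL mouse 2 and IF mouse 9 gave 8, and a 2-fold minimum gave 3 of 15 in male muscle. In females an unadjusted p gave 1 in liver, 4 in muscle and 12 in cortex, where DESeq2 gave 1. The test of diet by sex gave 13 in liver with no filter and 0 in cortex with the library of AL mouse 1 kept, and the sex difference in liver, a test added after seeing the data, 1 with RLE size factors. Beyond smaller groups or other filters, the cause was not tested.

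The replicate block gave 2 in male cortex, Kcnk6 and Kcnt1, and the block by mouse gave 2 for muscle minus cortex in males. Whether the numbers pair AL with IF mice is not given in the sources used here, and correlations cannot settle it. Same-numbered males correlated above 0.1 in 1 of 8 pairs in each of liver and muscle and 1 of 7 in cortex. Females did so in 1 of 8 pairs in liver, 4 of 8 in muscle (highest r 0.457) and 2 of 8 in cortex. Mice correlated best with their own number in 2, 0 and 0 male and 2, 1 and 1 female pairs. The block changed no other count by over 1.5 times. Depth limits the members below 1 CPM, whose changes rest on few counts per library.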

Other observations

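A pair of members, chosen after their values were seen, followed the choroid plexus marker Ttr across cortex libraries. Kcne2, an auxiliary subunit, and Kcnj13, an inward rectifier, are both known from choroid plexus epithelium. In males Kcne2 stood at 8.05 CPM in AL mouse 4, 9.52 CPM in IF mouse 11, 4.66 CPM in IF mouse 14 and 1.83 CPM in AL mouse 2, and Kcnj13 at 4.99, 5.99, 3.04 and 0.941 CPM in the same mice. In females Kcne2 stood at 7.37 and 15.5 CPM in IF mice 34 and 36, and Kcnj13 at 5.10 and 8.07 CPM. Neither was called for diet by edgeR in either sex, with adjusted p values of 0.382 for Kcne2 and 0.380 for Kcnj13 in females.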
